A study of Caenorhabditis elegans with 2 samples.

Results

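The genes described here are the 8 Caenorhabditis elegans genes dcr-1, drsh-1, pash-1, alg-1, alg-2, ain-1, ain-2 and nhl-2, which encode the enzymes and effector proteins that make and use microRNAs. They were chosen by name, as 8 of the 19973 protein-coding genes of the annotation, with earlier results of these data known. At 7 of the 8, a peak of the zinc finger transcription factor LSY-2 passed a replicate-agreement threshold in or just upstream of the gene. The same held for 25.9% of all protein-coding genes and 34.8% of those with regions as long as the members'. The exception among the 8 was dcr-1. The peaks that passed were the 5944 strongest of the 2 replicates pooled, so a passing peak need not rank high in each. At alg-1 and ain-2, no such peak ranked among the 5944 strongest of both replicates, by the nearest replicate summit. Binding had been measured by chromatin immunoprecipitation and sequencing (ChIP-seq), which recovers sonicated DNA bound by a protein, in 2 biological replicates of whole L4 larvae of mixed sex, with no second condition. Both replicates came from the single strain OP367, which carries the mutation unc-119(tm4063) III and the integrated transgene wgIs367, and in which LSY-2 has GFP and FLAG fused to its C-terminus. All animals therefore carried the transgene; the sources used here name neither the promoter that drives it nor the antibody. Because whole animals were used, a site bound in few cells and a site bound weakly in many cells cannot be told apart.

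In the microRNA pathway, the nuclear enzyme Drosha and its RNA-binding partner Pasha cut a hairpin out of a primary transcript, and Dicer trims that hairpin in the cytoplasm to the mature microRNA. An Argonaute protein carries the microRNA to messenger RNAs with complementary sites, and GW182 proteins bound to the Argonaute recruit the factors that block translation and shorten poly(A) tails. LSY-2 is itself linked to this pathway in one neuron, the left ASE taste neuron, where it is needed to switch on the microRNA gene lsy-6.

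Each peak has a summit, the base of highest enrichment, and a signal, the peak caller's strength value, for which the sources used here name no scale. The thresholded list, which holds the peaks kept by the irreproducible discovery rate (a measure of agreement between replicates), had 5944 peaks with signals from 59.9 to 19064.5 and a median of 114.8. It consisted of the strongest peaks of the list pooled over both replicates: the last peak inside and the first outside both had a signal of 59.9. The pooled list and each replicate's list held 30000 peaks and background regions each. Signals set the order of peaks within a list, with rank 1 for the strongest. Ratios of signal between the replicates are also given, but replicate 1 had the higher values across the list (a median ratio of 1.42 over matched peaks), so a ratio has to be read against that offset. Sequencing depth is unknown, so no counting error can be given for a signal, and the spread between the 2 replicates is the error given below.

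A thresholded summit lay within the gene, or up to 2000 bp upstream of one of its transcript 5′ ends, for drsh-1, pash-1, alg-1, alg-2, ain-1, ain-2 and nhl-2. Among all protein-coding genes, 25.9% (5169 of 19973) met the same rule. Long regions catch more summits: the members' regions ran from 5.421 to 10.315 kb, and among the 3997 genes with regions in that range the share was 34.8%. The 7 genes held 11 summits in all, so that the 66.027 kb of member regions carried 0.167 summits per kb, against 0.0680 per kb over all protein-coding genes. Only drsh-1 and ain-2 held more than 1 summit, with 2 and 4, as did 6.61% of all genes. No test was made, because the members were chosen by hand, with earlier results of these data known, and the study has 1 condition.

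With 1000 bp of upstream reach the same 7 members held a summit, and so did 22.0% of all genes. Other narrower rules kept fewer members. In a promoter window from 1000 bp upstream to 200 bp downstream of a 5′ end, 6 members held a summit (all but dcr-1 and drsh-1), against 19.5% of all genes. The alg-1 and alg-2 summits, 1827 bp and 382 bp downstream of the first 5′ end, counted only through a later one. When each summit was given only to the gene with the nearest 5′ end, 6 members kept one, against 18.5%; nhl-2 lost its summit to a neighbour. With the 2972 strongest peaks alone, the count was 4 (pash-1, alg-2, ain-1 and nhl-2), against 17.7%. Summits ranked up to 1000 lay in the regions of 3 members (pash-1, ain-1 and nhl-2), against 7.67% of genes. In the whole pooled list, which includes background regions, all 8 members held a summit, as did 42.6% of genes.

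**Figure D1:**
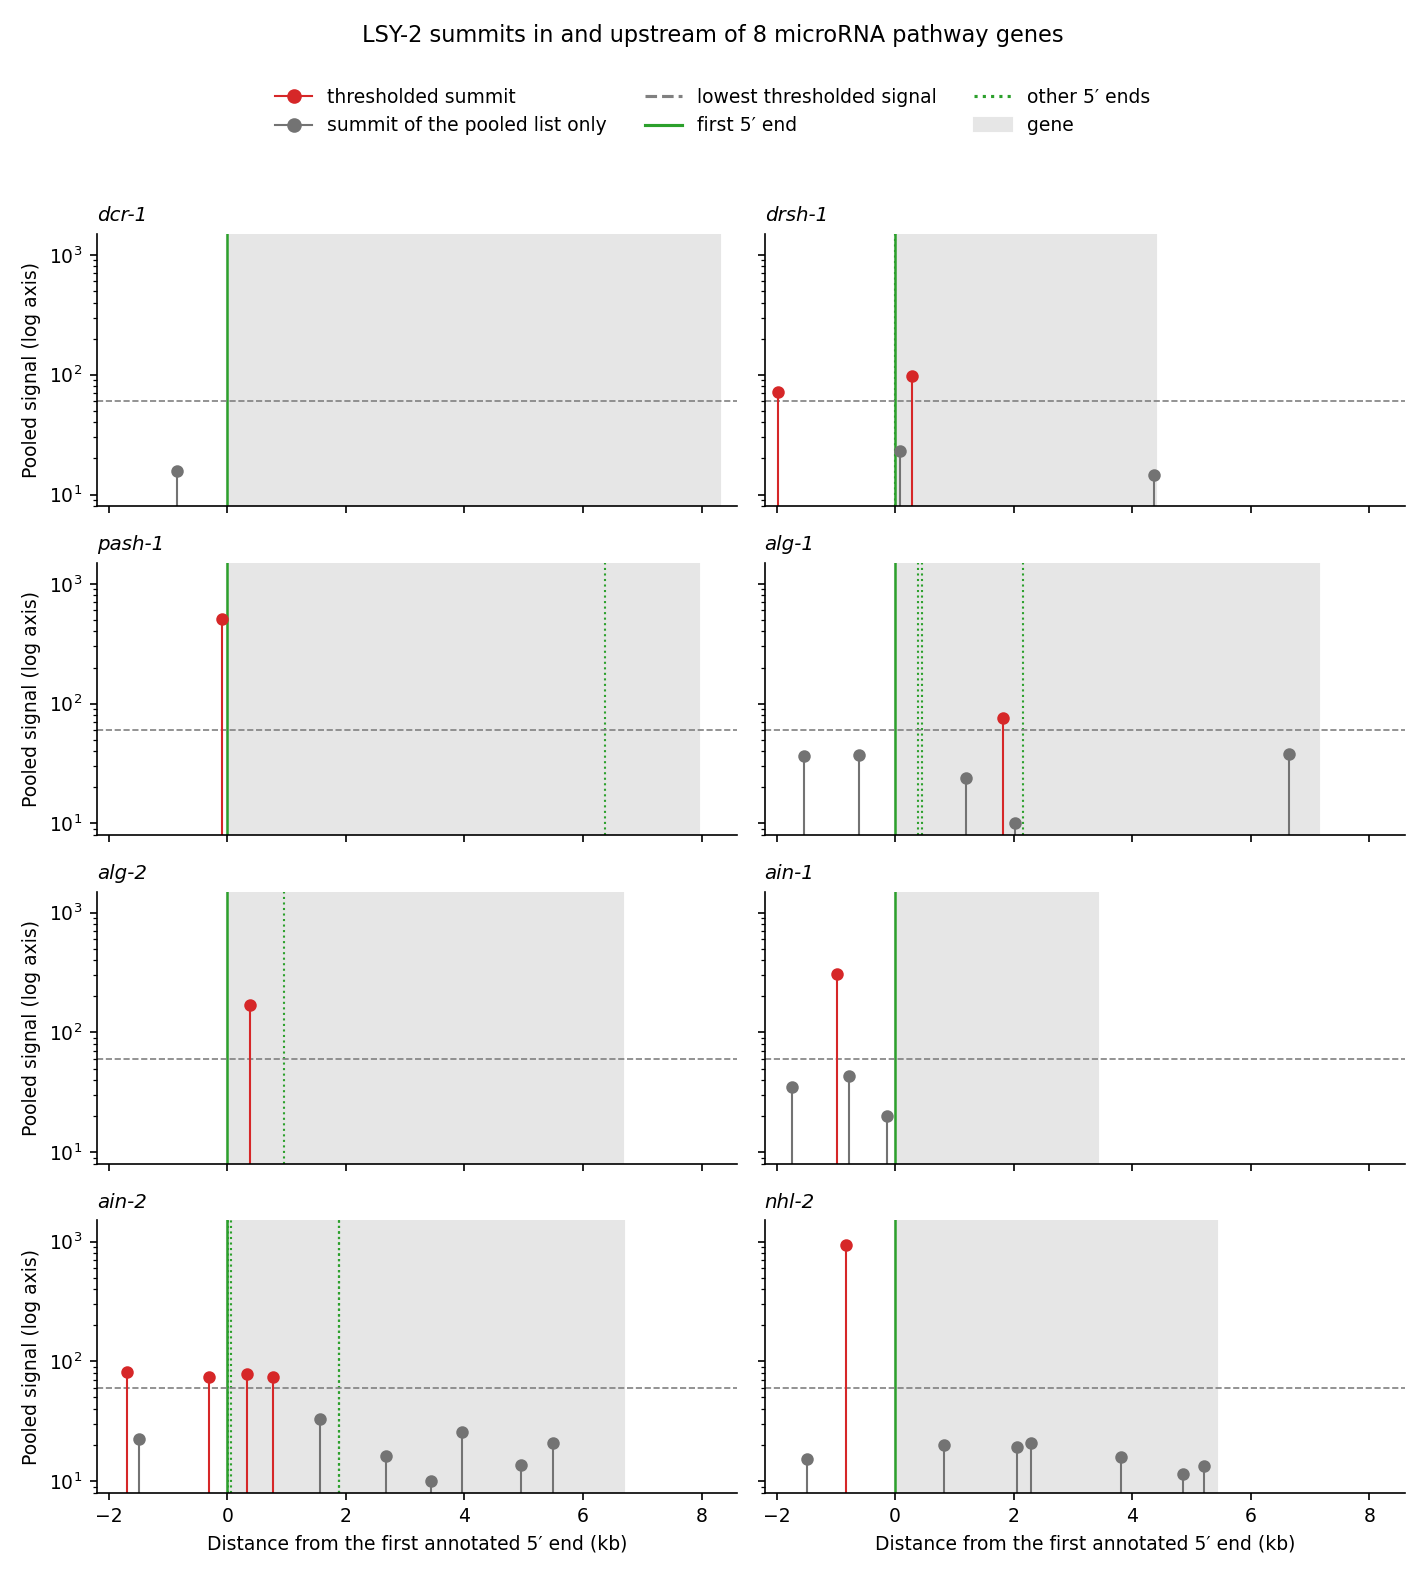
Map of the 8 genes, each drawn 5′ to 3′ with distance from its first 5′ end in kb (horizontal axis) and pooled signal on a log axis (vertical); red stems are thresholded summits, grey stems weaker pooled summits, shading the gene and the dashed line the lowest thresholded signal, 59.9. Thresholded summits are present at every gene except dcr-1, and ain-2 holds 4 of the 11.

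The Drosha gene drsh-1 (WBGene00009163, chrI:9781324-9785724, minus strand, ce11 as for all positions) held 2 weak summits. The stronger one, at chrI:9785431, lay in coding exon 1, 291 bp downstream of the nearest drsh-1 5′ end, and its peak was narrow, at 128 bp. It had a signal of 59.4 in replicate 1 (rank 3674) and 56.0 in replicate 2 (rank 2631), and 97.3 (rank 3558) in the thresholded list. Its log2 ratio of replicate 1 to replicate 2 was 0.09. The other summit, at chrI:9787692, was 1968 bp upstream of drsh-1, but only 68 bp upstream of tba-1, an alpha tubulin gene on the same strand that ends 56 bp before drsh-1 begins. This summit reached 29.0 in replicate 1 (rank 8207) and 53.5 in replicate 2 (rank 2813), with a thresholded signal of 71.1 (rank 4987). It was the weakest of the 11 member summits. A far stronger summit lay just outside the drsh-1 region, 2957 bp upstream, with a signal of 3856 (rank 29). Its ranks were 28 in replicate 1 and 31 in replicate 2, and the protein-coding gene with a 5′ end within 1000 bp of it was cox-5B, a cytochrome c oxidase subunit gene. With 2000 bp of upstream reach, this summit also lay in the region of tba-1.

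The partner gene pash-1 (WBGene00011908, chrI:10598673-10606621, plus strand), which encodes the RNA-binding subunit that positions Drosha on the hairpin, held 1 summit that was far stronger. Located at chrI:10598580, it was 93 bp upstream of the first 5′ end, the shortest such distance among the members' summits. The signal was 301.0 in replicate 1 (rank 393) and 202.0 in replicate 2 (rank 426), and 504.4 (rank 395) in the thresholded list. The rank thus moved little between the replicates. The gene upstream, T22A3.6, runs on the same strand and ends 183 bp before pash-1. No thresholded summit fell in the region of T22A3.6, and no weaker pooled summit fell in that of pash-1. The 2 proteins work as one complex, yet the strongest summit at pash-1 stood at rank 395 and that at drsh-1 at rank 3558.

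The Dicer gene dcr-1 (WBGene00000939, chrIII:8071967-8080281, minus strand) had no thresholded summit, although its region of 10.315 kb was the longest of the 8. The pooled list held 1 summit there, 844 bp upstream of the 5′ end, with a signal of 15.8 at rank 22017. In replicate 1 that summit had a signal of 9.52 (rank 23406). Replicate 1 held another summit, 1125 bp upstream, with 11.6 (rank 20245), and replicate 2 had no summit anywhere in the region. The dcr-1 5′ end is separated by 347 bp from that of the divergent gene apc-2, a subunit gene of the anaphase-promoting complex, which also had no thresholded summit. The weak summits of the pooled list and of replicate 1 lay within apc-2. The nearest thresholded summit was 5262 bp upstream of dcr-1. That summit was strong, with a signal of 1564 in replicate 1 (rank 55) and 943.8 in replicate 2 (rank 70), and 2492 (rank 61) in the thresholded list. Protein-coding genes with a 5′ end within 1000 bp of it were grp-1 and K06H7.7. Of 30000 pooled entries, only the first 5944 passed the threshold. With no summit in replicate 2, no binding found in both replicates was listed at dcr-1 in these animals.

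The stretch just upstream of dcr-1 is shown because dcr-1 is the one member without a thresholded summit. It covers chrIII:8080282-8080531 of the RefSeq WBcel235 genome (the ce11 sequence), read on the minus strand, and its last base adjoins the 5′ end. Capitals here and in the sequences shown for other members mark any of 7 short words, on either strand, that are given further on. GAGAGA and AGACGCAG had been found in these peaks earlier, and the other words were chosen after seeing the data.
dcr-1 upstream: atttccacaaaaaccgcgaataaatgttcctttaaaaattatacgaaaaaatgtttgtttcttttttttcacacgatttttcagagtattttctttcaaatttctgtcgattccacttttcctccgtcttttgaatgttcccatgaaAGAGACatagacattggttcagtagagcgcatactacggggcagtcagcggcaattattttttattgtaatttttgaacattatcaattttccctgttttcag
One of those words, AGAGAC, occurs in it.

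The Argonaute gene alg-1 (WBGene00000105, chrX:13949110-13956261, plus strand), which encodes the main microRNA-binding Argonaute of the soma, had the lowest best signal of the 7 genes. Its summit lay at chrX:13950937, in an exon annotated as 5′ UTR, 1827 bp downstream of the first 5′ end and 325 bp upstream of an internal one. The signal was 52.9 in replicate 1 (rank 4205) and 24.1 in replicate 2 (rank 7266), and 75.2 (rank 4699) in the thresholded list. The replicate 2 peak is also the nearest match of a weaker pooled summit of alg-1, with a signal of 10.0. The value in replicate 1 was 2.19 times that in replicate 2, where the rank fell beyond the 5944 strongest. Among the 5 weaker pooled summits in the region, from 10.0 to 38.1, 4 had a match in both replicates. One of these, 609 bp upstream of the first 5′ end, had a pooled signal of 37.5, with 16.2 in replicate 1 and 24.1 in replicate 2. Another, in the 3′ UTR, had 38.1, with 27.3 and 15.8. At alg-1, therefore, the thresholded summit was about as weak in replicate 2 as a summit that missed the threshold.

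The 30 bases around the alg-1 summit (chrX:13950933-13950962, plus strand) hold the word AGACGCAG, read here on the opposite strand as part of the run in capitals.
alg-1: ccaccgaatgtCTGCGTCTCTtgatctttc

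The second microRNA Argonaute gene, alg-2 (WBGene00000106, chrII:873212-879885, plus strand), overlaps alg-1 in function. It had 1 summit in every list, at chrII:873594 in an intron, 382 bp downstream of the first 5′ end. The signal was 110.2 in replicate 1 (rank 1715) and 64.8 in replicate 2 (rank 2208), and 170.4 (rank 1874) in the thresholded list. Unlike alg-1, alg-2 had no weaker pooled summit. A noncoding RNA gene, T07D3.12, begins 58 bp from the summit on the same strand. The 101 bases centred on it (chrII:873544-873644, plus strand) are shown because they hold none of the 7 words, and so carry no capitals.
alg-2: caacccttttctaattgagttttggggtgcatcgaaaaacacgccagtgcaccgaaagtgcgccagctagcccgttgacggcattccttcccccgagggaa

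The GW182 proteins AIN-1 and AIN-2 link the Argonautes to deadenylation and translational block. The region of ain-1 (WBGene00015547, chrX:16613451-16616871, plus strand), the shortest of the 8 at 5.421 kb, held 1 thresholded summit at chrX:16612468, 983 bp upstream of the 5′ end. Its signal was 183.1 in replicate 1 (rank 804) and 122.8 in replicate 2 (rank 920), and 307.3 (rank 811) in the thresholded list. The peak was the widest of the member peaks, at 543 bp. A second, weaker summit in the same interval, 781 bp upstream, had a pooled signal of 43.5 (rank 8327), with 30.5 in replicate 1 and 28.1 in replicate 2. No other annotated 5′ end lay within 1000 bp of the ain-1 summit. The divergent upstream gene F59C12.3 is separated from the ain-1 5′ end by 3926 bp. The 101 bases centred on the summit (chrX:16612418-16612518, plus strand) hold the words CGTCTC and AGAGAC, which overlap.
ain-1: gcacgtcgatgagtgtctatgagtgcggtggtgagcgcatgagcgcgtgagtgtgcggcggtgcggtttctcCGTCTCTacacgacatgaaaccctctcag

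By contrast, ain-2 (WBGene00015007, chrI:4653467-4660153, plus strand) held 4 thresholded summits of nearly equal, low signal, from 74.2 to 81.0, at ranks 4320 to 4768. The first, 1689 bp upstream, had 65.9 in replicate 1 (rank 3234) and 24.1 in replicate 2 (rank 7275). The next, 317 bp upstream, had 71.9 in replicate 1 (rank 2916) and 18.5 in replicate 2 (rank 10055). This second summit was also 244 bp upstream of ptps-1, a divergent gene for a pyruvoyl tetrahydropterin synthase whose 5′ end lies 560 bp from that of ain-2. The remaining pair lay in introns. The one 278 bp downstream of the nearest ain-2 5′ end had 60.8 in replicate 1 (rank 3568) and 26.6 in replicate 2 (rank 6452), and the one 702 bp downstream had 23.9 (rank 10135) and 33.7 (rank 4838). None of the 4 ranked among the 5944 strongest of both replicates. With the strongest instead of the nearest match within 200 bp, the last one did, since replicate 1 then gave it 53.0 (rank 4198). Each of the 4 had a lower thresholded signal than the single ain-1 summit, at 307.3. The summits 1689 bp and 317 bp upstream were closer to 5′ ends of B0041.5 and ptps-1 than to those of ain-2. The pooled list added 7 weaker summits at ain-2, of which 1 had a match in both replicates.

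The gene nhl-2 (WBGene00003598, chrIII:4893658-4899085, minus strand), which encodes a TRIM-NHL protein that binds the microRNA effector complex and strengthens silencing, had the strongest summit of the 8. The summit, at chrIII:4899912, was 827 bp upstream of nhl-2. Its signal was 490.4 in replicate 1 (rank 224) and 439.2 in replicate 2 (rank 176), and 935.0 (rank 200) in the thresholded list. The log2 ratio between replicates was 0.16, below the median of 0.51 over all matched peaks, and the rank was better in replicate 2. The summit sat in the 1422 bp between nhl-2 and the divergent gene tag-340, and was closer to tag-340, at 596 bp. The summit lay within a noncoding RNA gene on the nhl-2 strand, F26F4.14, 38 bp downstream of the 5′ end of that gene. The list does not say which of these genes, if any, the binding acts on. The 7 weaker pooled summits of nhl-2 had signals of 20.9 or less. The summits next in order were at rank 199, with 937.6, near par-2, rab-18 and kbp-4, and at rank 201, with 932.0, near imb-3.

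The 101 bases centred on the nhl-2 summit (chrIII:4899862-4899962, minus strand) hold ACGCAG and CGTCTC as separate words, both read on the opposite strand.
nhl-2: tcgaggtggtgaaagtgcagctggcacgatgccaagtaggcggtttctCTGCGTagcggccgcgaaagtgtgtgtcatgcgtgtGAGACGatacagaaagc

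Ordered by the thresholded signal of the strongest summit, the genes ran from nhl-2 through pash-1, ain-1, alg-2, drsh-1 and ain-2 to alg-1, a 12.4-fold range. The first 4 held the same order in both replicates. The last 3 did not: in replicate 1 the ain-2 summit of highest thresholded signal (65.9) stood above the stronger drsh-1 summit (59.4). In replicate 2 that ain-2 summit and the alg-1 summit both had 24.1, and the ain-2 summit 702 bp downstream of a 5′ end had 33.7. Among the 5169 genes with a thresholded summit, the best signals of nhl-2, pash-1 and ain-1 stood at places 379, 686 and 1292. The best signal of alg-2 stood at place 2543, near the middle, and those of drsh-1, ain-2 and alg-1 at 3893, 4432 and 4636. The median over the 7 members was 170.4, and the median over all 5169 genes was 168.5.

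**Figure D2:**
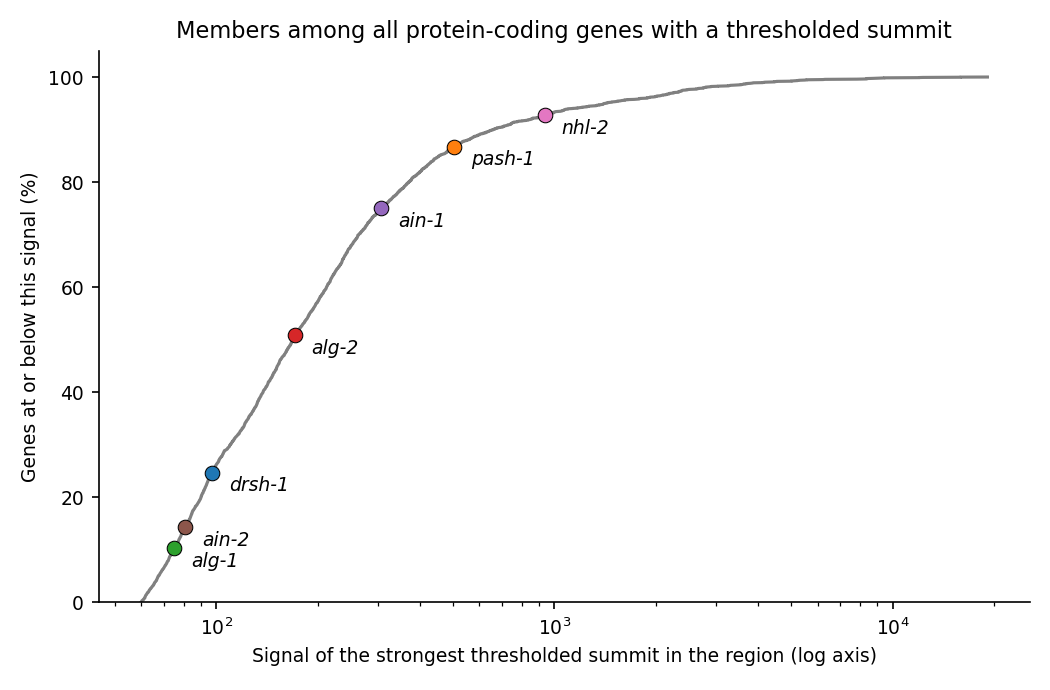
Cumulative share of the 5169 protein-coding genes with a thresholded summit (vertical axis, percent) against the signal of the gene's strongest summit (horizontal log axis), with the 7 members marked. The members spread from place 379 (nhl-2) to place 4636 (alg-1), on both sides of the median of 168.5.

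All 11 member summits had a summit within 200 bp in both replicates, as did 98.0% of all thresholded peaks. The signal was higher in replicate 1 at 9 of the 11, with a median log2 ratio of 0.58, and at 10 of the 11 with the strongest instead of the nearest match within 200 bp. Over all 5823 matched peaks the median was 0.51 with an SD of 0.61, so replicate 1 gave higher values across the list and the members followed it. The extremes were the ain-2 summit next to ptps-1, at 1.96, and the drsh-1 summit next to tba-1, at -0.88. Both, and the ain-2 summit 702 bp downstream of a 5′ end at -0.50, lie outside the range of -0.37 to 1.53 that held the peaks from the 5th to the 95th percentile. The direction of the last of these turned with the strongest match, which gave it 53.0 in replicate 1 and 33.7 in replicate 2. Of the 11, 5 ranked among the 5944 strongest in both replicates, against 73.2% of all peaks. These were the stronger drsh-1 summit and the summits of pash-1, alg-2, ain-1 and nhl-2.

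**Figure D3:**
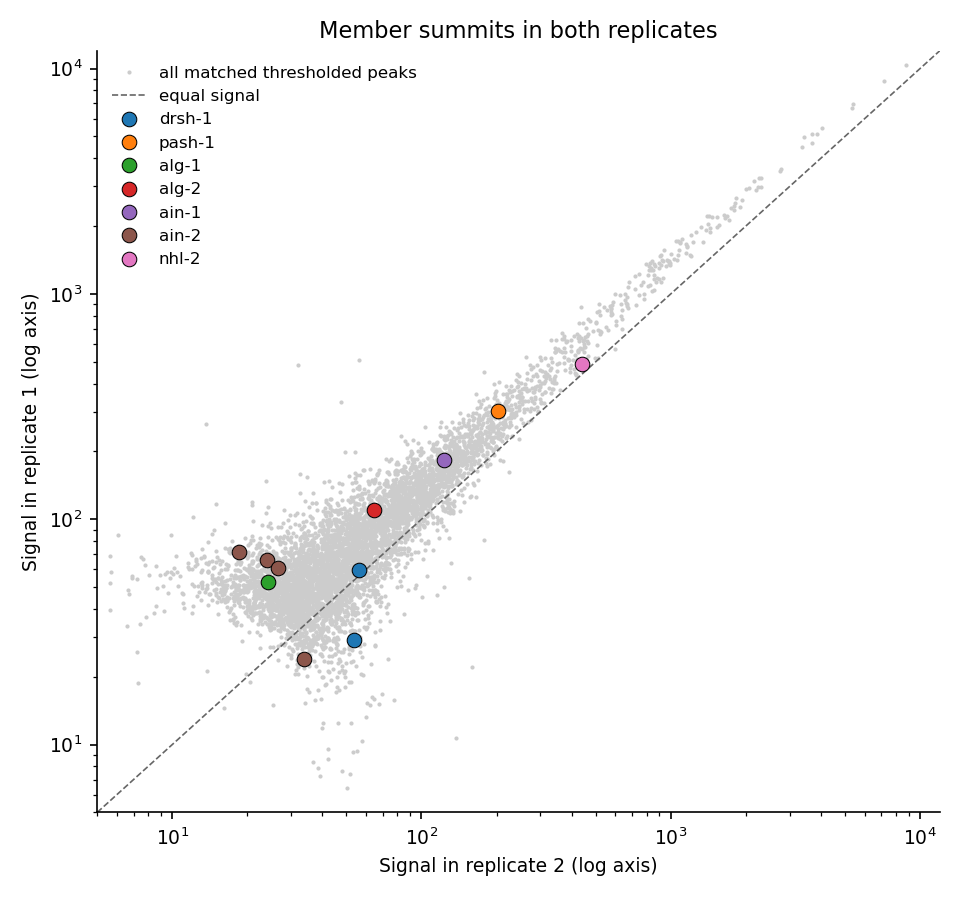
Signal of each thresholded peak in replicate 1 against replicate 2, both on log axes, with the 11 member summits marked. The dashed line marks equal signal: pash-1, ain-1 and alg-2 lie above it within the cloud of all peaks, nhl-2 lies close to it, and 1 ain-2 and 1 drsh-1 summit fall below it.

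By annotation of the member gene alone, 6 of the 11 summits lay outside it, 3 in introns, 1 in a coding exon and 1 in a 5′ UTR exon. Upstream of the nearest 5′ end of the member itself were 7, and 4 were downstream of it. In 7 of 11 cases the nearest protein-coding 5′ end was the member's, the others being closer to tba-1, B0041.5, ptps-1 and tag-340. A width of 360 bp, the commonest in the list, was found at 4 of 11 member peaks (alg-1 and 3 of ain-2) and 46.9% of all peaks.

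The words GAGAGA and AGACGCAG, searched on both strands within 50 bp of the summit, were found at 2 member summits each. GAGAGA was at pash-1 and at 1 ain-2 summit, against 25.9% of all thresholded summits. AGACGCAG was at pash-1 and alg-1, against 9.34%. In windows of 301 bp at the 5′ ends of all 19973 genes, the shares were 19.6% and 2.64%. Those windows are longer than the 101 bp searched at summits. Both words had been found in these peaks earlier, so their shares at summits and at 5′ ends are no test of the words. The 5 further words were chosen after seeing the data. Of these, CGTCTC was at 5 member summits (15.7% of all) and ACGCAG at 4 (14.3%). AGAGAC and GACGCA were at 3 each (18.1% and 14.0%) and AGACGC at 2 (13.1%). These words overlap one another and AGACGCAG, so the counts are not separate. At least 1 of the 7 words was present at 6 of 11 member summits and at 45.0% of all. The median GC content within 50 bp was 44.6% at member summits and 43.6% over all.

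Other genes were described with 4 lists, in which 67 of 74 names were found in the annotation. The lists also hold genes of other small RNA pathways, so their shares are not those of the microRNA pathway alone. Of the 67 genes, 42 (62.7%) held a thresholded summit under the region rule, against the 25.9% of all protein-coding genes given above, with 0.159 summits per kb. The lists differed widely. Among 21 genes of deadenylation, decapping and mRNA decay, the steps that the AIN proteins call on, 19 held a summit, with a median best signal of 333.1; ntl-9 and xrn-1 had none. The strongest were at ifet-1, which encodes an eIF4E-binding translational repressor (8987, rank 6), and at the CCR4-NOT subunit genes ntl-2 (2356, rank 69) and ntl-3 (1417, rank 127). Each of these exceeded every member's signal. The ntl-3 summit lay 1374 bp upstream of the nearest ntl-3 5′ end.

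Of the 17 genes of microRNA turnover and other cofactors, 12 held a summit (70.6%, against 25.9% of all protein-coding genes). They were led by xrn-2, which encodes an exonuclease that degrades microRNAs (2464, rank 62), by the chaperone gene hsp-90 (1399, rank 128) and by tsn-1, which encodes a Tudor nuclease of the silencing complex (1055, rank 167). Among 14 Dicer partners and small RNA enzymes, 8 held one (57.1%). The partner gene rde-4 encodes a double-stranded RNA-binding protein that works with Dicer in RNA interference. Its summit had a signal of 4189 (rank 25), while dcr-1 itself had none. Next came eri-5 (1067, rank 163) and ekl-1 (655.0, rank 285). The eri-5 summit lay 1691 bp upstream of the nearest eri-5 5′ end, and the xrn-2 summit 1213 bp upstream of that of xrn-2. Other genes near these summits are not given here. For Argonautes other than ALG-1 and ALG-2, 3 of 15 genes (20%) held a summit, near the 25.9% of all protein-coding genes. Their density was 0.0313 summits per kb, against 0.0680 over all protein-coding genes. The 3 were alg-5, whose protein binds microRNAs in the germ line (370.2), wago-4 (314.1) and csr-1 (79.3), both of small interfering RNA pathways. Both microRNA Argonaute genes among the members thus held summits, but at signals below those of alg-5 and wago-4.

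**Figure D4:**
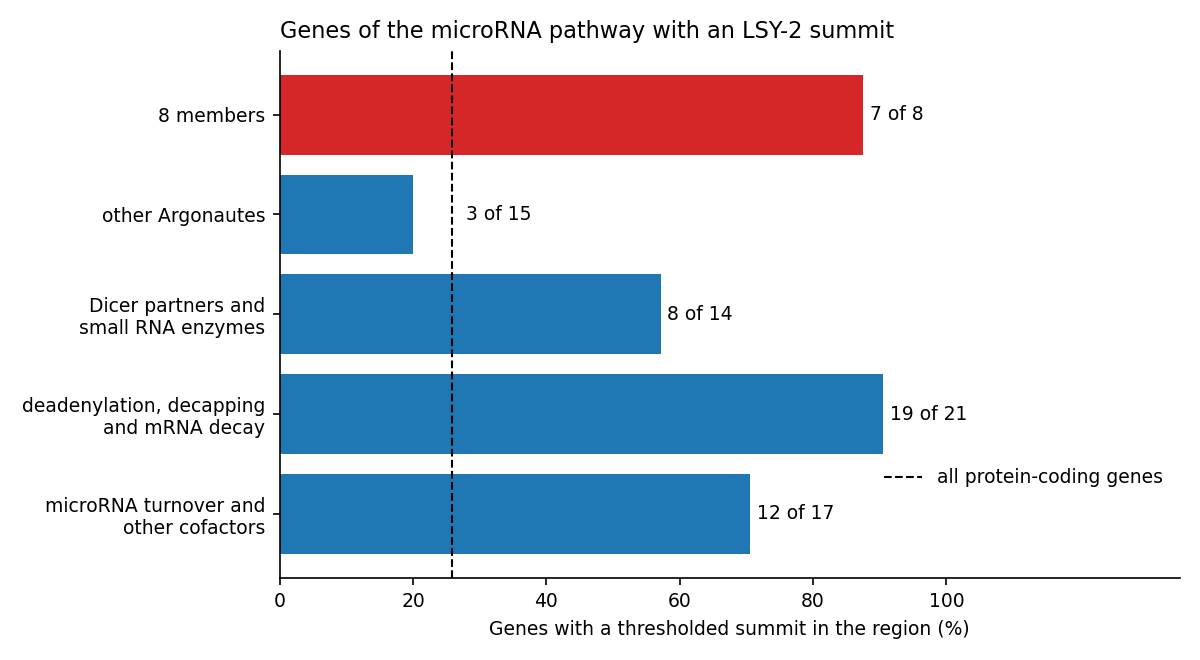
Share of genes with a thresholded summit, in percent, for the 8 members and the 4 lists of other small RNA, cofactor and mRNA decay genes. Counts stand beside the bars, and a dashed line marks the share of all protein-coding genes. The mRNA decay list (19 of 21) stands highest. The other Argonautes (3 of 15, or 20%) lie near the dashed line at 25.9%.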

How the data were processed

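LSY-2 ChIP-seq peak lists from 2 replicates, placed on ce11, were used as the authors deposited them: a thresholded list, a list pooled over both replicates and a list for each replicate. The deposited signal values are the peak caller's strength of each peak, on a scale that the sources used here do not name. The deposited −log10 q-values, which reach 4.20 in the pooled list, were not used to order peaks. Of the aligner, peak caller, discovery-rate threshold and depth, the sources used here name none; control libraries were not analysed here. Per the labels, both replicates are separate biological samples. The ce10 lists were not used.

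Genes came from Ensembl release 115 (WBcel235), read with Python 3.11.15, numpy 2.4.6 and pandas 2.3.3 and drawn with matplotlib 3.10.9. A summit counted for a gene if it lay in the gene or up to 2000 bp upstream of a transcript 5′ end. Replicate summits were matched to the nearest within 200 bp. The counting of summits was checked with simulated summits planted in annotated gene regions. The members, words and gene lists were chosen with earlier results of these data known, so all counts are descriptions and no test was made. The text names all members, every gene with a 5′ end within 1000 bp of a member summit, the 3 strongest genes of each list and the neighbours in rank of the strongest member. Other upstream neighbours, the genes near strong summits outside a region, and ntl-9 and xrn-1 were named after their values were seen. Upstream reach, window, peak list, assignment, matching and replicates were varied.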

Additional observations from a re-analysis of the deposited data

How the results depend on the processing

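The count of members with a thresholded summit was 5 to 8 of 8 under the alternatives for upstream reach, window, interval overlap, assignment, replicates and the whole pooled list, 4 with the 2972 strongest peaks and 3 with summits ranked up to 1000. With 500 bp of upstream reach ain-1 and nhl-2 lost their summits, leaving 5. Leaving out replicate 1, alg-1 had none, and 6 members remained. Summits per kb in member regions fell from 0.167 to 0.0606 with the 2972 strongest peaks and to 0.130 with 500 bp of reach, and leaving out a replicate gave 0.121 to 0.151. Over all genes the density was 0.0680, and 0.0390 with the 2972 strongest peaks. GAGAGA was found at 6 member summits instead of 2 within 100 bp, against 39.1% of all summits. The other Argonautes numbered 2 instead of 3 with 500 bp of reach, with the 2972 strongest peaks and without replicate 2; the counts of the other 3 pathway lists moved by less than 1.5 times. No paired analysis was possible because there is 1 group and no test. The 5 further words and the strongest-match rule were chosen after seeing the data. Weak summits, as at alg-1 and ain-2, are limited by unknown depth.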
